A study of Mus musculus with 15 samples.

Results

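The cytokines of the blood stem cell niche and their receptors were followed through the mouse aorta-gonad-mesonephros (AGM) region, the site where the first hematopoietic stem cells (HSCs) arise. The genes were chosen by name, as the classical ligands and receptors of the niche: Kitl, Kit, Cxcl12, Cxcr4, Thpo, Flt3, Flt3l, Procr and Angpt1. Of these 9 names, 8 matched a row among the 28876 genes measured, and Flt3l was not analysed here. RNA was sequenced from C57BL/6 embryos, with no allele or treatment named, at the embryonic stages E9.5 (E9) and E10.5 (E10). Tissue was dissected into the dorsal aorta's dorsal side with its surroundings (AoD), its ventral side with its surroundings (AoV) and, at E10.5, the urogenital ridges (UGR). The 5 groups, written E10 AoV, E10 AoD, E10 UGR, E9 AoV and E9 AoD, had 3 libraries each, 15 in all. Each library was made from tissue pooled over many embryos in separate experiments, so p-values measure the spread between these pools.

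KIT ligand, also called stem cell factor, binds the receptor tyrosine kinase KIT, which marks hematopoietic stem and progenitor cells and is also carried by germ cells and melanoblasts. The chemokine CXCL12 draws cells that carry CXCR4 and holds HSCs in the adult bone marrow. Thrombopoietin drives platelet formation and sustains HSCs, FLT3 ligand acts through FLT3, and angiopoietin 1 through the endothelial receptor TEK, while PROCR, the endothelial protein C receptor, is used to mark HSCs and endothelium.

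Levels are given in RPM (reads-per-million of all reads that fell on genes), a unit that is not adjusted for gene length. Depth, read from the steps between low values, was 33.7 to 48.6 M (megareads) per library, and a count of 0 allowed a level of up to 0.0617 to 0.0889 RPM, counting error only. Differences are on the log2(RPM + 0.1) scale from limma, fitted to all 15 libraries, and adjusted p-values (Benjamini-Hochberg) cover the 18553 genes that reached 0.5 RPM in at least 1 library. A gene passed the test when its adjusted p was below 0.05, and was called when its fold change also reached 2. Among the members, 7 entered the test and Flt3 stayed under the filter. The samples carried endothelial marker genes in every group, at summed levels between 372.6 and 824.4 RPM over 11 genes, and 10 urogenital ridge markers summed to between 768.7 and 843.1 RPM in E10 UGR. Being bulk tissue, the samples cannot tell fewer cells of a type apart from less RNA per cell.

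Kitl lies at chr10:99478264-99563047 on the plus strand, Kit at chr5:75970941-76052747 (plus), Cxcl12 at chr6:117118553-117131385 (plus) and Cxcr4 at chr1:130484776-130488870 (minus), all protein-coding genes of build NCBIM37. Thpo lies at chr16:20725231-20734584 (minus), Flt3 at chr5:148142317-148212065 (minus), Procr at chr2:155576853-155581207 (plus) and Angpt1 at chr15:42256273-42508523 (minus). Promoters of 7 of these genes, as the 250 bases before the start in the RefSeq table of build GRCm38.p6, matched NCBIM37 exactly and once. They were searched on both strands for TATAAA, for GATA sites (AGATAA and its variant AGATAG, or TGATAA and its variant TGATAG), and for the core ACGTG or its variant GCGTG read by hypoxia-inducible factors. Of the 7 windows, 2 held TATAAA, 3 held the hypoxia core and 0 held a GATA site, against 12.4%, 38.6% and 26.5% of 32851 promoter windows of the same length. Cxcr4 and Cxcl12 are shown in full, as the members with the largest difference by position at E9.5 and by stage in AoV, with any motif in capitals. In the Cxcr4 window (chr1:130488877-130489126, minus strand) the capitals mark GCGTG and TATAAA, the latter on both strands with an overlap.
Cxcr4: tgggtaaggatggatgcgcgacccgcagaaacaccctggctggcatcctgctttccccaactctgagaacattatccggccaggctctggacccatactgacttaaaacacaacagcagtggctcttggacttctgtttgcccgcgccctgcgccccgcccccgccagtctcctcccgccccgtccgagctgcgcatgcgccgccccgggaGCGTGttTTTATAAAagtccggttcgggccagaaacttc
The Cxcl12 window (chr6:117118303-117118552, plus strand) held none of these words.
Cxcl12: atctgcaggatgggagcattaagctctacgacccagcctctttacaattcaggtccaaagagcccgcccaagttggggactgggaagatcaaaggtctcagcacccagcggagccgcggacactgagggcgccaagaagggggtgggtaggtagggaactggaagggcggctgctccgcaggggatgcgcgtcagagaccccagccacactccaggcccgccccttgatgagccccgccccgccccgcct
For the ligand and receptor pair Kitl and Kit, the stretch from 40 to 11 bases before the start is shown, where Kitl held TATAAA (capitals) and Kit did not. These stretches, downstream of where GENCODE M1 starts both genes, lie at chr10:99478415-99478444 and chr5:75970972-75971001, both on the plus strand.
Kitl: ggcgggagggagctgTATAAAaagcgctgg
Kit: tcgcgcgccgctagtggctctgggggctcg
A match describes these letters only and is not evidence of binding.

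**Figure D1:**
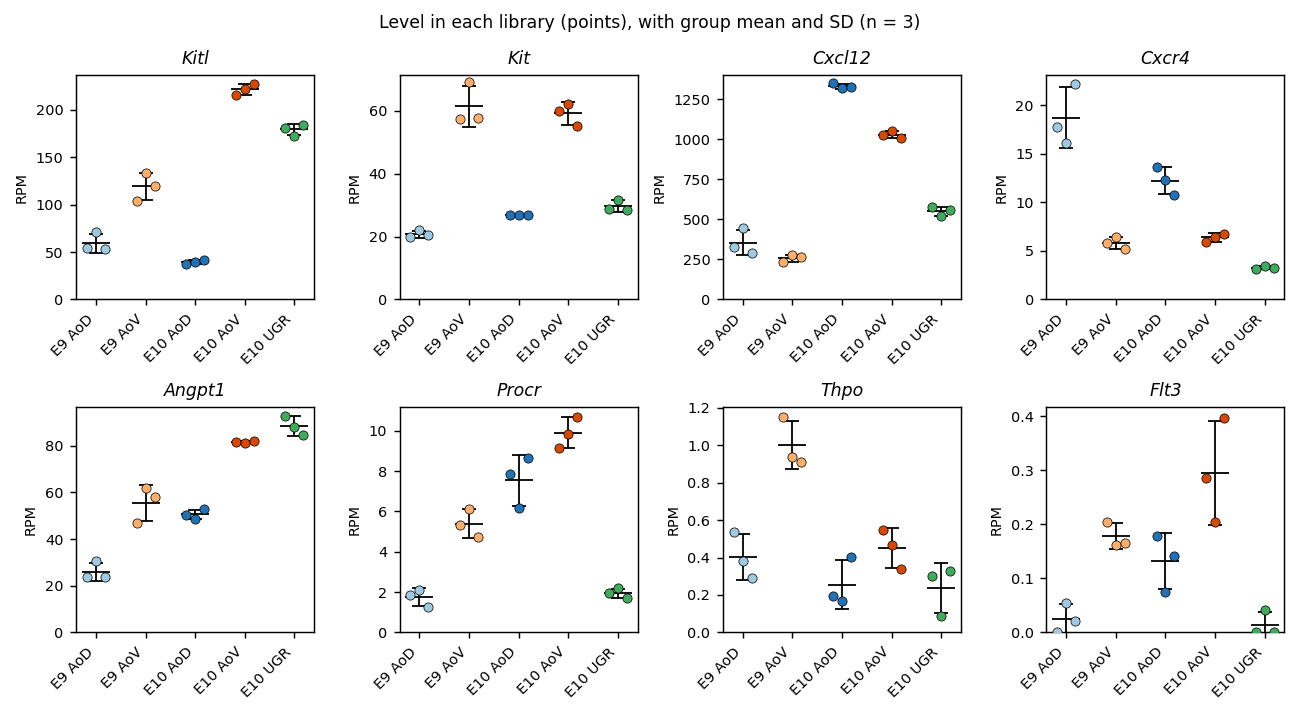
Level of the 8 genes in RPM (vertical axes, from 0) in each library of the 5 groups; points are libraries, bars the mean and SD of 3. Kitl was highest in E10 AoV (215 to 227 RPM), Cxcl12 in E10 AoD (1320 to 1350 RPM) and Cxcr4 in E9 AoD (16.1 to 22.2 RPM).

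Kitl, the ligand, changed with stage in opposite directions on either side of the aorta. On the ventral side it was at 104, 133 and 120 RPM in E9 AoV and at 215, 222 and 227 RPM in E10 AoV. On the dorsal side it was at 54.4, 70.7 and 52.9 RPM in E9 AoD and at 37.3, 39.4 and 41.8 RPM in E10 AoD. Every E10 AoV library was above every E9 AoV library, and every E10 AoD library was below every E9 AoD library. The rise in AoV was 0.90 (SE 0.0987, adjusted p = 3.29e-06) and the fall in AoD was -0.58 (SE 0.0987, adjusted p = 0.000163), neither of which reached the fold change of 2. Their difference, the interaction of stage and position in limma, was 1.48 (SE 0.14, adjusted p = 2.34e-06) and was called. At E10.5 the ventral side exceeded the dorsal side by 2.48 on the log2 scale, a fold change of 5.596 (adjusted p = 2e-10), and no library overlapped. At E9.5 the same difference was 1.01 (adjusted p = 9.71e-07), on the fold threshold itself: it was between 0.92 and 0.999 without E9 AoD replicate 1 or 3 or E9 AoV replicate 2 or 3, 0.97 under trimmed mean scaling, 0.99 under quantile normalization and 0.997 with a pseudocount of 1 RPM. The call was lost there while the adjusted p stayed below 0.05.

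Levels of Kitl in the urogenital ridges came close to those of the ventral aorta, at 181, 172 and 184 RPM. E10 AoV exceeded E10 UGR by 0.31 (95% interval 0.10 to 0.52, adjusted p = 0.03), and E10 AoD was lower than E10 UGR by a fold change of 4.53 (adjusted p = 3.58e-10). The order of the group levels was E10 AoV, E10 UGR, E9 AoV, E9 AoD and E10 AoD, and each neighbouring pair in it passed the test. Of 10 markers of the urogenital ridge tested, 9 were called higher in E10 AoV than on the dorsal side at that stage and 6 higher than in E9 AoV, the directions of Kitl. In other comparisons the markers went against it, with 1 higher and 3 lower in E9 AoV than in E9 AoD (median -0.51) and 2 higher and 5 lower in E10 AoV than in E10 UGR. The 1 marker called higher in E9 AoV, Gata4, was at a mean of 95.6 RPM there and 9.55 RPM in E9 AoD. The summed level of the 10 was 673.2 to 702.5 RPM in E10 AoV, 768.7 to 843.1 in E10 UGR, 169.8 to 179.2 in E9 AoV, 59.2 to 146.6 in E9 AoD and 62.7 to 89.1 in E10 AoD, with no marker at 0 in a whole group, and their part in the Kitl result was not tested.

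Kit, the receptor, differed with position at both stages and did not pass the test between stages on the ventral side. It was at 57.4, 69.1 and 57.9 RPM in E9 AoV and at 60.1, 62.2 and 55.3 RPM in E10 AoV, and these ranges overlapped (log2 difference -0.05, 95% interval -0.21 to 0.11, adjusted p = 0.608). In E9 AoD it was at 19.8, 22.0 and 20.4 RPM and in E10 AoD at 26.8, 26.9 and 27.0 RPM, a rise of 0.38 (adjusted p = 0.000458) below the fold threshold. Both ventral groups stood wholly above both dorsal groups, by a fold change of 2.95 at E9.5 (log2 1.56, adjusted p = 9.99e-10) and of 2.19 at E10.5 (log2 1.13, adjusted p = 1.52e-08). The change with stage was smaller in AoV than in AoD by 0.43 (SE 0.103, adjusted p = 0.006). E10 UGR, at 28.9, 31.8 and 28.4 RPM, lay below E10 AoV by 0.99 (adjusted p = 1.09e-07), which reached the fold threshold without E10 AoV replicate 3 or E10 UGR replicate 2 (1.04), and beside E10 AoD (log2 difference -0.14, 95% interval -0.30 to 0.02, adjusted p = 0.148).

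Markers of other cells that carry Kit were read beside it. Of 8 germ cell markers tested, E10 AoV had 7 called higher relative to E10 AoD (10.1% of all genes called). Relative to E9 AoV, where Kit did not pass the test, it had 5 higher and 2 lower (11%). At E9.5, calls put 4 of them above E9 AoD in E9 AoV and 0 below (11.8%). For E10 AoV beside E10 UGR, 6 calls were upward and 0 downward (7.57%). Kit passed the test upward in both of these comparisons. With stage in AoD, where Kit rose, 0 markers had an upward call and 2 a downward one (12.6%). For E10 AoD beside E10 UGR, where Kit did not pass the test, 0 calls were upward and 6 downward (11.3%). The summed level of 9 germ cell markers was 69.0 to 75.0 RPM in E10 AoV, 43.9 to 45.5 in E10 AoD, 132.4 to 151.6 in E9 AoV, 117.1 to 134.6 in E9 AoD and 34.0 to 37.6 in E10 UGR. Sall4, which other embryonic cells express too, made up most of the sum at E9.5 (mean 99.1 RPM in AoD and 101.4 in AoV), while Pou5f1 was at 14.7 ± 0.902 RPM in E10 AoV and at most 2.86 RPM in the other groups. Of 11 hematopoietic markers, 4 were called higher and 0 lower in E9 AoV than in E9 AoD (11.8% of all genes called). At E10.5, 2 were called higher and 0 lower in AoV than in AoD (10.1%). With stage in AoV, where Kit did not pass the test, 5 of these hematopoietic markers were called higher and 0 lower (11%). Their summed level was 133.9 to 142.2 RPM in E9 AoV, 86.7 to 103.3 in E9 AoD, 182.6 to 206.1 in E10 AoV, 162.4 to 184.9 in E10 AoD and 113.7 to 114.9 in E10 UGR. Most of this sum in each group was Cd34, which aortic endothelium expresses too. Cd34 was at a mean of 93.9 RPM in E9 AoV, 73.3 in E9 AoD, 112.3 in E10 AoV, 108.9 in E10 AoD and 71.3 in E10 UGR. Ptprc was at most 5.35 RPM in any library. Markers of neural crest and melanoblasts ran the other way from Kit by position, with 0 higher and 4 of 7 lower in E10 AoV than in E10 AoD. At E9.5, 0 were called higher and 3 lower in AoV than in AoD. With stage in AoD, where Kit rose, 4 of these markers were called higher and 0 lower. Their sums over 8 genes were 28.8 to 40.1 RPM in E10 AoV, 167.8 to 185.6 in E10 AoD, 57.4 to 63.4 in E10 UGR, 17.2 to 25.1 in E9 AoV and 57.6 to 68.1 in E9 AoD, and Tyrp1 was at 0 in E9 AoD and E10 UGR. What each of these cell types contributed to the Kit level was not tested.

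Cxcl12, the chemokine, was, per length of exon, the most abundant of the members in each group and rose with stage on both sides of the aorta. It was at 330, 444 and 293 RPM in E9 AoD and at 1350, 1320 and 1330 RPM in E10 AoD. In E9 AoV it was at 233, 277 and 263 RPM and in E10 AoV at 1030, 1050 and 1010 RPM. The rise was 1.93 in AoD (fold change 3.81, adjusted p = 3.55e-09) and 2.002 in AoV (fold change 4.01, adjusted p = 3.27e-09), with no overlap between stages. These rises did not differ by the interaction test (0.07, 95% interval -0.26 to 0.40, adjusted p = 0.776), an interval that leaves room for a modest difference in either direction. The dorsal side was higher at both stages, by 0.45 at E9.5 (adjusted p = 0.0035) and 0.37 at E10.5 (adjusted p = 0.0148), each below the fold threshold and without overlap. In E10 UGR the level was intermediate, at 576, 519 and 559 RPM, lower than in E10 AoD by a fold change of 2.42 (adjusted p = 2.49e-07) and lower than in E10 AoV by a fold change of 1.87 (adjusted p = 1.56e-05). The order E10 AoD, E10 AoV, E10 UGR, E9 AoD and E9 AoV held between all neighbours.

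Cxcr4, the receptor of CXCL12, was dorsal and was highest at the earlier stage. It was at 17.8, 16.1 and 22.2 RPM in E9 AoD against 5.81, 6.42 and 5.23 RPM in E9 AoV, a fold change of 3.16 (log2 -1.66, ventral minus dorsal, adjusted p = 3.93e-08). At E10.5 it was at 13.6, 12.3 and 10.8 RPM in AoD against 5.94, 6.45 and 6.78 RPM in AoV (log2 -0.92, adjusted p = 1.88e-05), which missed the fold threshold and passed it without E10 AoD replicate 3 (-1.01). Dorsal and ventral libraries did not overlap at either stage. Between stages it fell by 0.60 in AoD (adjusted p = 0.00051) and did not pass the test in AoV (0.14, 95% interval -0.12 to 0.39, adjusted p = 0.375), and the changes differed by 0.74 (SE 0.167, adjusted p = 0.00385). E10 UGR had the lowest level, 3.17, 3.43 and 3.21 RPM, which E10 AoD exceeded by a fold change of 3.65 (adjusted p = 1.11e-08) and E10 AoV by one of 1.92 (adjusted p = 2.18e-05).

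Markers of 2 dorsal tissues were read beside Cxcr4. All 8 neural tube markers were called lower in E9 AoV than in E9 AoD, and 7 were lower in E10 AoV than in E10 AoD. Their summed level was 197.9 to 416.6 RPM in E9 AoD, 44.9 to 80.0 in E10 AoD, 13.8 to 16.7 in E9 AoV, 9.08 to 10.4 in E10 AoV and 6.07 to 8.14 in E10 UGR, which is also the order of Cxcr4 except for the ventral pair. Of 8 somite markers, 7 were called lower in AoV than in AoD at each stage and 1 higher at E9.5, with sums of 526.8 to 532.0 RPM in E9 AoD and 566.6 to 721.2 in E10 AoD against 66.1 to 90.5 in E9 AoV, 41.9 to 49.5 in E10 AoV and 138.7 to 209.9 in E10 UGR. Somite markers were evenly split with stage in AoD, where Cxcr4 fell, with 2 called higher and 2 lower. They went against Cxcr4 between E10 AoV and E10 UGR, with 1 higher and 6 lower in E10 AoV, while Cxcr4 was lowest in E10 UGR. In neither list was a marker at 0 in a whole group, and their part in the Cxcr4 level was not tested.

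**Figure D2:**
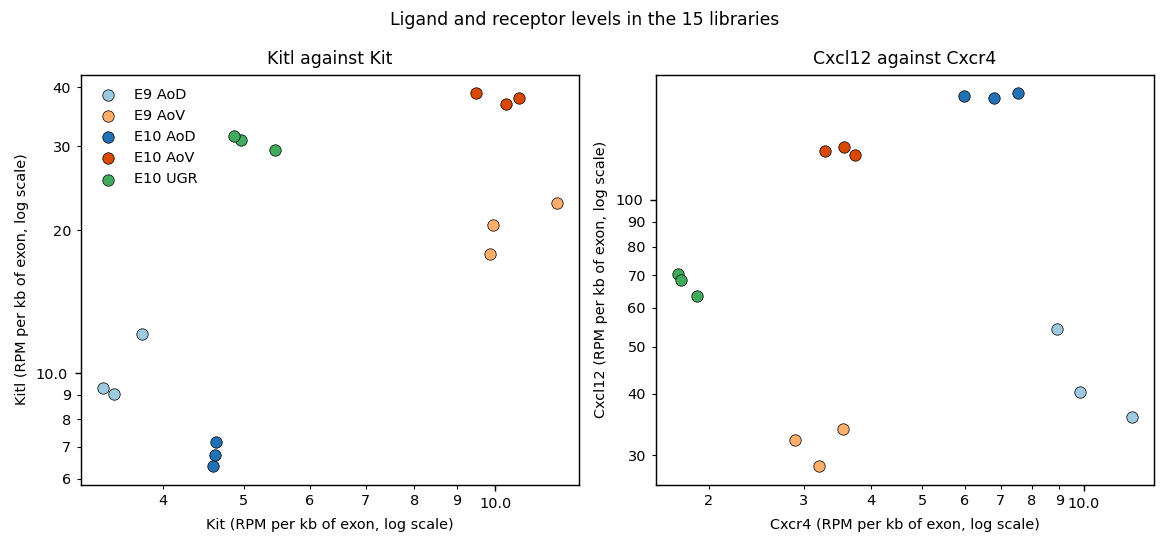
Ligand against receptor in the 15 libraries, in RPM per kb of exon on log axes, for Kitl against Kit (left) and Cxcl12 against Cxcr4 (right). E10 AoV was the group with high Kitl and high Kit, while Cxcl12 was highest in E10 AoD and Cxcr4 in E9 AoD.

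Dividing by exon length allows a ligand to be set beside its receptor. On that scale, in RPM per kb of exon, Kitl was 37.9 ± 1.03 (SD, n = 3) and Kit 10.2 ± 0.607 in E10 AoV, while Kitl was 6.76 ± 0.385 and Kit 4.61 ± 0.0172 in E10 AoD. The ratio of Kitl to Kit per length was 6.04 ± 0.565 in E10 UGR, 3.74 ± 0.306 in E10 AoV, 2.85 ± 0.322 in E9 AoD, 1.93 ± 0.13 in E9 AoV and 1.47 ± 0.0781 in E10 AoD. No pair of groups overlapped in this ratio. It was above 1 in each library, the lowest being 1.39, and highest in the urogenital ridges. For Cxcl12 and Cxcr4 the ratio was 37.4 ± 3.5 in E10 UGR, 35.8 ± 2.71 in E10 AoV, 24.3 ± 2.69 in E10 AoD, 9.84 ± 1.16 in E9 AoV and 4.37 ± 1.61 in E9 AoD. E10 AoV and E10 UGR overlapped in this ratio, from 32.9 to 38.3 and from 33.5 to 40.2, and the other groups did not. These ratios are descriptions of RNA, with no test.

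Angpt1, the ligand of TEK, rose with stage and was higher ventrally. Its libraries read 23.6, 30.4 and 23.9 RPM in E9 AoD, 50.3, 48.7 and 52.8 RPM in E10 AoD, and 47.0, 61.9 and 57.9 RPM in E9 AoV. In E10 AoV they read 81.6, 81.2 and 82.1 RPM and in E10 UGR 93.0, 87.9 and 84.8 RPM. Ventral and dorsal libraries did not overlap at either stage, and the difference was called at E9.5 (1.10, fold change 2.14, adjusted p = 4.02e-07) but not at E10.5 (0.69, adjusted p = 5.17e-05). With stage it rose by 0.97 in AoD (adjusted p = 9.89e-07), which reached 1.09 and the fold threshold without E9 AoD replicate 2, and by 0.56 in AoV (adjusted p = 0.000279). The rises differed by 0.41 (SE 0.139, adjusted p = 0.0408). E10 UGR and E10 AoV did not differ by the test (0.12 higher in UGR, 95% interval of AoV minus UGR -0.33 to 0.09, adjusted p = 0.419), nor did E9 AoV and E10 AoD (adjusted p = 0.32).

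The receptors of the angiopoietins were followed for their role. Tek was at 73.1 ± 2.97 RPM in E9 AoV, 60.9 ± 3.56 in E10 AoV, 53.5 ± 3.84 in E10 AoD, 40.2 ± 1.07 in E10 UGR and 25.4 ± 5.19 in E9 AoD. It was called higher in E9 AoV than in E9 AoD (log2 1.54, adjusted p = 3.8e-08) and in E10 AoD than in E9 AoD (1.09, adjusted p = 8.95e-07), and did not pass for E10 AoV against E10 AoD (0.19, adjusted p = 0.207). Tie1, a related endothelial receptor, was called higher in E10 AoD than in E9 AoD (1.12, adjusted p = 3.15e-07). The other angiopoietins were read beside Angpt1. Angpt2, which can oppose Angpt1 at TEK, rose in AoV with stage (16.2 ± 1.99 to 33.2 ± 1.66 RPM, log2 1.04, adjusted p = 4e-05) and more steeply in AoD (3.08 ± 0.8 to 17.3 ± 0.945 RPM, log2 2.48, adjusted p = 5.12e-09), a difference in rise of -1.44 by the interaction (adjusted p = 0.000104). Its lowest groups were E9 AoD and E10 UGR (6.45 ± 0.492 RPM). Angpt4 was highest in E10 AoD, at 10.6 ± 1.37 RPM against 2.52 ± 0.178 in E10 AoV (log2 -2.03, adjusted p = 2.29e-06).

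Procr was low in E9 AoD and E10 UGR and higher in the other 3 groups. It was at 1.87, 2.12 and 1.26 RPM in E9 AoD, 7.84, 6.17 and 8.64 RPM in E10 AoD, and 5.33, 6.14 and 4.73 RPM in E9 AoV. In E10 AoV it was at 9.16, 9.87 and 10.7 RPM and in E10 UGR at 1.93, 2.18 and 1.72 RPM. The libraries of E10 AoV stood above all others, yet its difference from E10 AoD did not pass the test (0.40, 95% interval 0.03 to 0.77, adjusted p = 0.0882). With stage it rose by 2.06 in AoD (fold change 4.18, adjusted p = 1.38e-07, called) and by 0.87 in AoV (adjusted p = 0.000813). The rise was smaller in AoV by 1.195 (SE 0.244, adjusted p = 0.00181, called), which fell below the fold threshold without E9 AoD replicate 3 (-0.99) and with a pseudocount of 1 RPM (-0.87).

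At E9.5 Procr was higher ventrally by a fold change of 3.02 (log2 1.59, adjusted p = 2.72e-06). Both sides of the E10.5 aorta exceeded E10 UGR, AoV by a fold change of 4.91 (adjusted p = 1.37e-07) and AoD by one of 3.72 (adjusted p = 4.74e-07). Of 8 markers of smooth muscle and pericytes, 7 were called higher and 0 lower in E10 AoD than in E9 AoD (12.6% of all genes called). In E10 AoV relative to E10 UGR, 7 were higher and 0 lower (7.57%), and in E10 AoD relative to E10 UGR 6 were higher and 1 lower (11.3%). In E9 AoV relative to E9 AoD, 5 were higher and 0 lower (11.8%). Their sums were 1173 to 1235 RPM in E10 AoV, 856.8 to 1031 in E10 AoD, 316.3 to 360.5 in E10 UGR, 605.3 to 614.2 in E9 AoV and 181.2 to 293.9 in E9 AoD, with none at 0 in a whole group. Of 11 endothelial markers, 10 passed the test in E10 AoD against E9 AoD (57.8% of all genes) and 4 were called, all higher (12.6%). In E9 AoV against E9 AoD, 11 passed (47.7% of all genes) and 1 was called, higher (11.8%). In E10 AoV against E10 UGR, 8 passed (29.1% of all genes) and 0 were called (7.57%). Their sums were 763.7 to 824.4 RPM in E10 AoV, 725.6 to 796.5 in E10 AoD, 724.8 to 776.1 in E9 AoV, 578.8 to 620.8 in E10 UGR and 372.6 to 497.0 in E9 AoD, with means in the order of the Procr means. The part of either list in the Procr level was not tested.

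Of the genes of the protein C pathway, Thbd had the same order of group means as Procr, while F2r, F2 and Proc did not. Thbd, or thrombomodulin, which binds thrombin so that protein C is activated, was at 25.03 ± 0.987 RPM in E10 AoV, 23.1 ± 1.94 in E10 AoD, 7.99 ± 0.662 in E10 UGR, 11.7 ± 0.551 in E9 AoV and 4.91 ± 0.497 in E9 AoD, and rose with stage on both sides (AoV 1.09, adjusted p = 1.38e-07; AoD 2.21, adjusted p = 1.99e-10). F2r, a thrombin receptor, was highest in E10 AoV (396 to 416 RPM) and rose there by 1.04 (adjusted p = 5.29e-09). F2, prothrombin, was at 2.88 to 4.24 RPM in E9 AoV and at most 0.172 RPM in every other group. Proc, protein C itself, was at 0.761 to 1.23 RPM in E9 AoV, at most 0.197 RPM elsewhere and at 0 in all E10 AoD libraries. F2 and Proc are genes of the liver, and both reached the filter on low values only in E9 AoV. Of 10 markers of liver and gut endoderm, 9 were called higher in E9 AoV than in E9 AoD, where 11.8% of all genes were called. The part of liver and gut endoderm in the F2 and Proc levels was not tested.

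Thpo, which encodes thrombopoietin, was near the lower limit of the test in all groups and highest in E9 AoV. It was at 1.15, 0.94 and 0.913 RPM in E9 AoV, against 0.537, 0.382 and 0.293 RPM in E9 AoD and 0.549, 0.469 and 0.336 RPM in E10 AoV. In E10 AoD it was at 0.192, 0.165 and 0.405 RPM and in E10 UGR at 0.301, 0.0845 and 0.33 RPM, with a low value in 1 library of UGR that is close to the level of 3 reads. Only E9 AoV stood wholly above the other groups. It exceeded E9 AoD by 1.15 (SE 0.323, adjusted p = 0.00867, called), which slipped below the fold threshold without E9 AoD replicate 3 (0.98), with quantile normalization (0.90) and with a pseudocount of 1 RPM (0.51). The fall in AoV with stage was -1.01 (SE 0.323, adjusted p = 0.0189, called) and was not called without E9 AoV replicate 1 (-0.92, adjusted p = 0.0612) or E10 AoV replicate 3 (-0.85, adjusted p = 0.0751), nor with a pseudocount of 1 RPM (-0.46, adjusted p = 0.00149). No other comparison of Thpo between neighbouring levels passed, and the interaction did not (-0.47, 95% interval -1.44 to 0.51, adjusted p = 0.502).

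Liver and gut endoderm markers summed highest in E9 AoV, where Thpo, a gene that the liver expresses, was also highest. Their summed level over 10 genes was 520.7 to 772.2 RPM in E9 AoV, against 20.4 to 50.1 in E9 AoD, 23.5 to 32.4 in E10 AoD, 14.9 to 16.1 in E10 AoV and 13.5 to 16.1 in E10 UGR. Among the other groups the order was not that of Thpo. Its second highest mean was in E10 AoV (0.451 RPM), where the marker sum was lower than in either dorsal group. Most of the E10 AoD sum was Hhex and Foxa1 (means 11.3 and 11.1 RPM), and most of the E10 AoV sum was Hhex (12.8 RPM). Between E10 AoV and E10 AoD, 1 of the 10 markers was called higher and 2 lower (10.1% of all genes called). Their median difference there was 0.50, so the order of the sums was not that of most markers. In the stage comparison of AoV, 9 of the 10 markers were called lower at E10.5, with a median of -6.365 beside -1.01 for Thpo. None of the markers was at 0 in a whole group. Their part in the Thpo result was not tested.

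Flt3, the receptor of FLT3 ligand and a marker of multipotent and lymphoid progenitors, was at the edge of detection. About 11, 8 and 17 reads stood behind the E10 AoV libraries (0.285, 0.205 and 0.396 RPM) and about 9, 7 and 7 behind E9 AoV (0.205, 0.162 and 0.166 RPM). In E10 AoD the values were 0.179, 0.0753 and 0.142 RPM, in E9 AoD 0, 0.0537 and 0.0214 RPM, and in E10 UGR 0, 0.0411 and 0 RPM. Ventral libraries were above dorsal libraries at both stages, and every library of E9 AoD and E10 UGR lay under the level of 3 reads. Pooling the reads of a group, 36 in E10 AoV against 16 in E10 AoD gave a ratio of 2.26 (exact 95% interval 1.22 to 4.36), 23 in E9 AoV against 3 in E9 AoD gave 7.41 (2.24 to 38.5), and 36 in E10 AoV against 2 in E10 UGR gave 17.6 (4.53 to 151). Between the stages of AoV the ratio was 1.68 (0.966 to 2.96), an interval that holds no change, while 16 reads in E10 AoD against 3 in E9 AoD gave 5.49 (1.57 to 29.4). These intervals cover counting error only, not the spread between pools. In a limma fit of all 28876 genes without the filter, Flt3 in E10 AoV exceeded E10 UGR (adjusted p = 0.000131) in E9 AoV exceeded E9 AoD (adjusted p = 0.00165) and in E10 AoD exceeded E9 AoD (log2 0.89, adjusted p = 0.00772), and did not pass between the stages of AoV (0.48, adjusted p = 0.137).

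**Figure D3:**
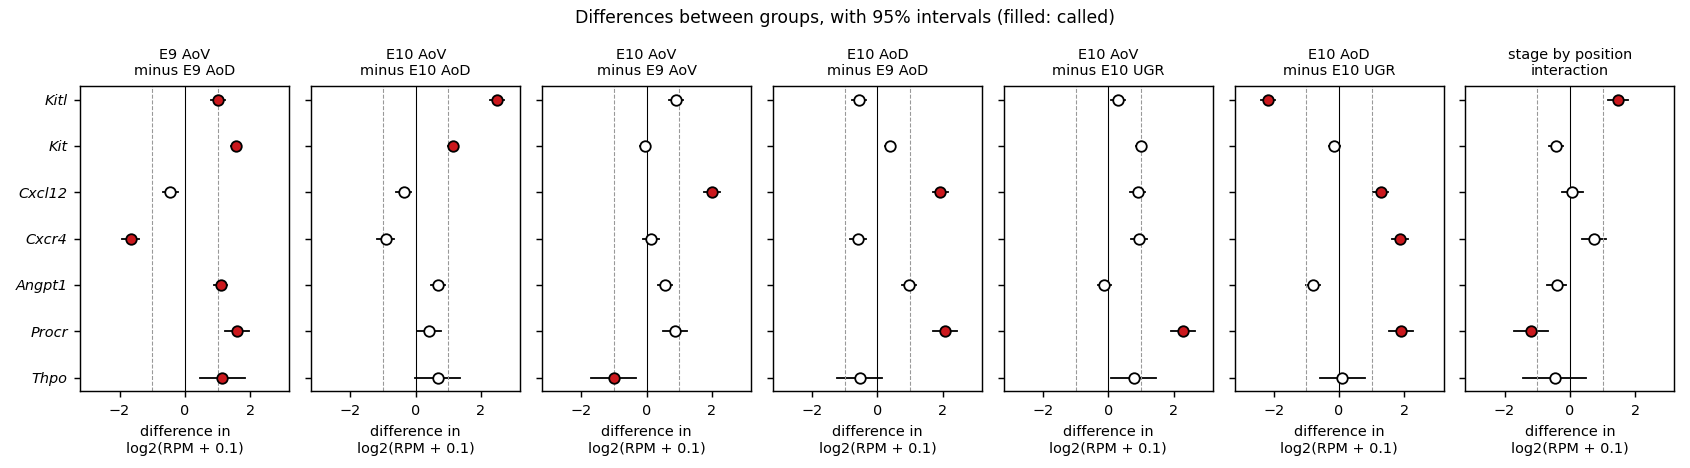
Difference in log2(RPM + 0.1) of the 7 tested members (rows) in 7 comparisons (panels), with 95% intervals as lines; dashed lines mark the fold change of 2 and filled points the called members. The E9.5 comparison of AoV with AoD has 6 filled points of 7, the comparison of E10 AoV with E10 UGR 1.

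By comparison, the members were most divided by position at E9.5. There 6 of the 7 tested members were called, 5 higher in AoV and Cxcr4 lower, where 11.8% of all tested genes were called, and 7 passed the test, where 47.7% of all genes passed. The 6 fell to 4 with quantile normalization, with a pseudocount of 1 RPM and without E9 AoD replicate 3, where Kitl and Thpo missed the fold threshold. The members' median difference was 1.10, beside 0.02 over all genes. At E10.5 position called 2, Kitl and Kit, both higher in AoV (background 10.1%), and 5 passed (35.5%), with a median of 0.68 beside 0.02. With stage, 2 were called in AoV, Cxcl12 higher and Thpo lower (11%), and 5 passed (46%), with a median of 0.56 beside 0.00 over all genes. In AoD, Cxcl12 and Procr were called higher with stage (12.6%), and 6 passed (57.8%), with a median of 0.38.

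Against the urogenital ridges, E10 AoV differed in 1 called member, Procr (7.57%), while 5 passed (29.1%). E10 AoD differed in 4, with Cxcl12, Cxcr4 and Procr higher and Kitl lower (11.3%), and 5 passed (39.2%). The interaction of stage and position was called for 2, Kitl and Procr (11%), and 5 passed (28.1%). The 7 members that passed the filter on low values leave out Flt3, the comparisons share groups, and counts of 7 genes chosen by name describe these genes only. The members were chosen with earlier results of these data known, so the shares of all genes beside these counts are no test of them.

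Genes with the closest pattern to each member were read as a description, by Pearson's r of log2(RPM + 0.1) over the 15 libraries among 16524 genes. Kitl ran closest to Tcf21, a transcription factor of mesenchyme (r = 0.988), followed by F11r (0.987) and Sfrp1, a secreted inhibitor of WNT (0.985). For Kit the first was Large (0.987), followed by Ece1, the endothelin-converting enzyme (0.983). Procr ran closest to Csrp1 (0.988), followed by the gene listed as CT010471.3 (0.987) and the smooth muscle actin gene Actg2 (0.986), and Angpt1 to Ccdc126 (0.988). The nearest gene to Cxcr4 was the integrin Itgb8 (0.987), to Cxcl12 ORF63 (0.983), and to Thpo Tmem150, with a lower r of 0.901. Among members, Angpt1 and Cxcr4 ran most opposed (r = -0.88) and Kitl and Angpt1 most together (0.748), while Kitl and Kit had an r of 0.652 and Cxcl12 and Cxcr4 one of 0.04. The libraries share 5 groups, so these values rest on few independent levels.

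Of 14 partners of the members, 13 entered the test. In AoV with stage 3 were called higher and 4 lower, where 11% of all tested genes were called, and between E10 AoV and E10 AoD 1 was higher and 1 lower, near the 10.1% of all genes. Those that fell with stage in AoV were F2 (-4.36, adjusted p = 2.58e-08), Proc (-2.89, adjusted p = 1.03e-06), Cxcl14, another chemokine (-2.69, adjusted p = 1.15e-07), and Dpp4, the peptidase that inactivates CXCL12 (-2.25, adjusted p = 1.43e-07). F2 and Proc reached the filter on low values only in E9 AoV, the group they fell from. Their falls, and their place among the 4 lower, were therefore fixed in part by the filter. Dpp4 was at 16.4 ± 3.82 RPM in E9 AoV and 18.8 ± 1.54 in E10 UGR, against 1.87 ± 0.104 in E9 AoD, 1.25 ± 0.385 in E10 AoD and 3.32 ± 0.401 in E10 AoV. Ackr3, the scavenger receptor of CXCL12 listed as Cxcr7, fell with stage in both AoV (-0.48, adjusted p = 9.75e-05) and AoD (-0.70, adjusted p = 1.77e-06), each below the fold threshold.

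**Figure D4:**
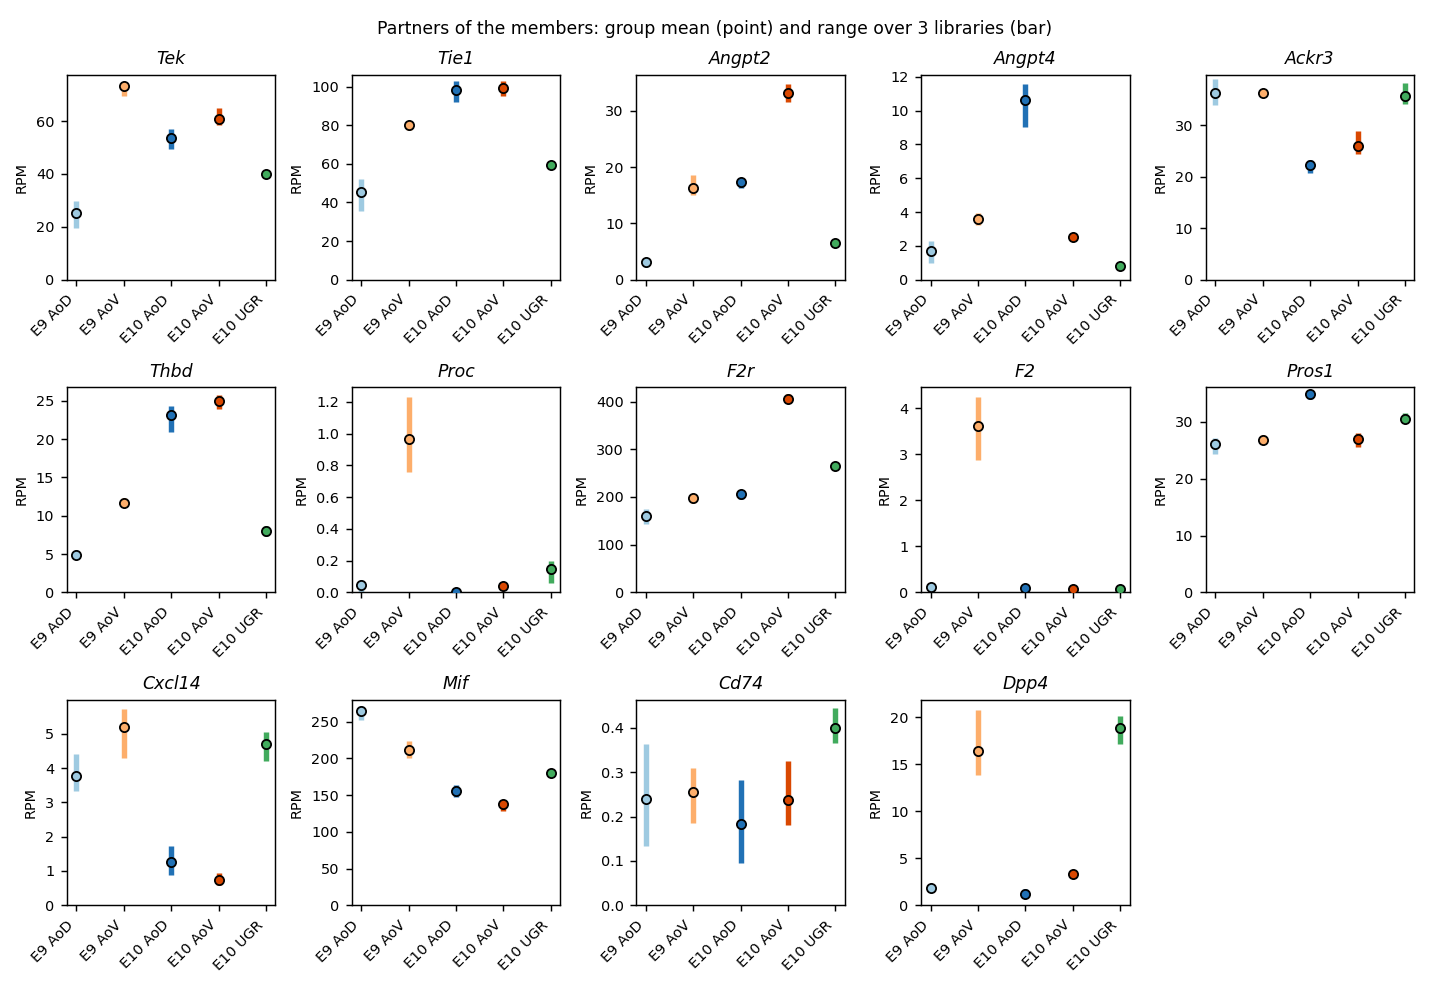
Level in RPM (vertical axes, from 0) of 14 partners of the members in the 5 groups; points are means and bars the range over 3 libraries. F2 and Proc stood apart in E9 AoV, Angpt4 in E10 AoD, and F2r and Angpt2 in E10 AoV.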

How the data were processed

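RNA sequencing of 15 pooled tissue samples was read from the table the authors deposited. The authors mapped single-end reads with TopHat and Bowtie (0.12.3 per the labels) on build NCBI37/mm9 and counted them over Ensembl genes in GeneProf, and deposited RPM values that were not adjusted for length. The deposited table also holds 12 columns of the authors' own comparisons, with log2 fold changes and adjusted p-values from DESeq, which were not used. Low RPM values are steps of a single read, which gave the depth, but whole multiples made up 51.3% to 58.6% of them, so reads were not recovered across genes and no count test was run across them; for Flt3 alone, RPM times depth was rounded to whole reads.

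The model, in limma 3.58.1 (R 4.3.3), took log2(RPM + 0.1) of 15 libraries and gave each group a mean, with an intensity trend and Benjamini-Hochberg adjustment over the 18553 genes that reached 0.5 RPM in 1 or more libraries. The pseudocount is worth 3.37 to 4.86 reads. The script was tested on simulated data. Levels, ratios and figures were computed with Python 3.11.15. Positions and exon lengths come from GENCODE M1 on NCBIM37, and promoters from RefSeq. The members and lists were chosen with earlier results of these data known. Named were all members, the 3 genes closest to each in pattern, of which the first or first few are given, and from each pathway list the genes called in E10 AoV against E9 AoV or E10 AoD, at most 6 per comparison; Tek, Tie1, Angpt2 and Ackr3 were added for their role.

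Replicate numbers were checked for pairing by the correlation of deviations from group means. Of 30 same-numbered pairs 11 were above 0.1 (-0.138 to 0.452), and only E9 AoV and E9 AoD had all 3 pairs above 0.1. Of the 15 libraries, 11 correlated best with libraries of their own number in other groups. A block was therefore tried as an alternative. Other alternatives were the pseudocount, the filter, scaling, the samples fitted, leaving out each library, and the exon length.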

Additional observations from a re-analysis of the deposited data

Results flagged for a closer look

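Genes were singled out where the change with stage differed between the ventral and the dorsal aorta by the interaction test of limma (adjusted p below 0.05), and 5 of the 7 tested members were, where 28.1% of all tested genes passed. For Kitl the change in AoV minus that in AoD was 1.48 on the log2 scale (adjusted p = 2.34e-06), a rise on one side and a fall on the other. It was 0.74 for Cxcr4 (adjusted p = 0.00385), which fell in AoD, and -1.20 for Procr (adjusted p = 0.00181), which rose on both sides and more in AoD. The values of Kit (-0.43, adjusted p = 0.006) and Angpt1 (-0.41, adjusted p = 0.0408) were smaller than the fold threshold. The members were chosen with earlier results of these data known, so the count of 5 describes these genes only. Groups of 3 libraries were too small for a search for single outlying libraries.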

How the results depend on the processing

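Of 679 recomputed fold changes of members, 654 kept their direction and their call, 15 lost a call, 6 gained one and 4 changed direction. Members called in E10 AoV against E9 AoV were 1 in place of 2 with a pseudocount of 1 RPM and with a filter of at least 1 RPM in 3 samples, which Thpo did not pass, and 1 to 2 when libraries were left out one at a time. In E10 AoV against E10 UGR they were 2 in place of 1 without a filter, which let Flt3 in, and with trimmed mean scaling or quantile normalization, where Kit reached 1.03, and 1 to 2 with libraries left out. For the interaction they were 1 in place of 2 with a pseudocount of 1 RPM and 1 to 2 with libraries left out. That pseudocount lowered the genes called to 1104, 1281, 1020, 1196, 735, 1143 and 1174, from 2046, 2337, 1874, 2187, 1404, 2100 and 2044, in the order E10 AoV against E9 AoV, E10 AoD against E9 AoD, E10 AoV against E10 AoD, E9 AoV against E9 AoD, both against E10 UGR (AoV first) and the interaction. It shrinks differences at low levels by construction. Directions turned only where the test had not passed: Kit in AoV with stage (-0.097 to 0.036 with libraries left out), Thpo in E10 AoD against E10 UGR (-0.291 to 0.319 with libraries left out) and Cxcl12 in the interaction (-0.098 to 0.202 with libraries left out). Quantile normalization moved the share of higher genes among those called in E9 AoV against E9 AoD from 70.6% to 59.4%. With the longest transcript in place of all exons, levels in E10 AoV became 39.2 RPM per kb for Kitl, 11.3 for Kit, 183 for Cxcl12, 0.0748 for Flt3 and 6.16 for Procr. The pairing of replicate numbers was kept as a block in 1 alternative: members called stayed at 6 in E9 AoV against E9 AoD (4 to 6 with libraries left out and 4 to 7 under the other settings), also with those groups alone (chosen after seeing the data), and the block changed no other call of a member. Depth limits Flt3 and Thpo.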

Other observations

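Other cytokine genes and signalling genes of the same pathways were counted from lists fixed by hand. Of 14 other hematopoietic cytokines, 12 were matched and 3 reached the filter, Csf1, Epo and Il15; Il3 and Csf2 were not analysed here. Epo, the cytokine of red cell formation, fell with stage in AoV from 2.24 ± 0.54 to 0.259 ± 0.0513 RPM (-2.69 on the log2 scale, limma adjusted p = 2.43e-08) and was lower in E10 AoV than in E10 AoD (-1.26, adjusted p = 5.67e-05). Of 14 other cytokine receptors tested, 3 were called higher and 1 lower with stage in AoV (11% of all tested genes called), and 0 of 14 between E10 AoV and E10 AoD (10.1%), where 4 had an adjusted p below 0.05 (35.5%). Csf1r, the macrophage colony-stimulating factor receptor, rose from 2.98 ± 0.282 to 10.4 ± 0.997 RPM (1.78, adjusted p = 7.31e-06), as did Il6ra (1.12, adjusted p = 0.000199) and Osmr (1.06, adjusted p = 5.13e-05). Il1r1, a receptor of interleukin 1, fell from 15.3 ± 3.25 to 4.70 ± 0.303 RPM (-1.66, adjusted p = 2.41e-05). Macrophage markers, a list that holds Csf1r itself, went in the same direction, with 7 of 8 called higher with stage in AoV. Their sums, Csf1r included, were 10.9 to 13.6 RPM in E9 AoV and 56.5 to 66.8 in E10 AoV. The part of macrophages in the Csf1r level was not tested.

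Of 30 genes of KIT and FLT3 signalling, all tested, 2 were called higher and 1 lower with stage in AoV, and 1 higher and 0 lower in E10 AoV than in E10 AoD, shares no higher than the 11% and 10.1% of all tested genes. The phosphatase Ptpn6, which restrains KIT, rose in AoV from 5.93 ± 0.185 to 14.9 ± 0.777 RPM (1.32, adjusted p = 1.03e-08), and the adaptor Gab2 rose by 1.14 (adjusted p = 5.85e-07). Grb7, another adaptor, fell by 2.71 on the log2 scale (adjusted p = 1.43e-07), and was at 27.5 ± 1.4 RPM in E10 UGR, 3.40 ± 0.692 in E10 AoV and 1.23 ± 0.481 in E10 AoD (AoV minus AoD 1.45, adjusted p = 8.78e-05). The median difference of the list was 0.21 with stage in AoV and 0.00 between E10 AoV and E10 AoD, beside 0.00 and 0.02 over all genes.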
